A study of Homo sapiens with 6 samples.

Results

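The genes described here are 55 factors that human cells use to build ribosomes, chosen by name for their function, with earlier results of these data known. They comprise subunits and factors of RNA polymerase I, proteins of the small nucleolar ribonucleoproteins, nucleolar phosphoproteins, and assembly factors of the small (40S) and large (60S) ribosomal subunits. Of the 55, 52 were named on at least 1 array probe and 50 could be tested, out of 11426 genes tested in all. WDR43, EBNA1BP2 and GNL3 had no probe named for them here. TCOF1, which encodes the nucleolar protein treacle, had 3 probes, and NPM1, which encodes nucleophosmin, had 1 probe, and none of these was above background on any array. Neither gene is given a level or a direction below.

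MDA-MB-231 is an established basal cell line derived from a breast tumour of the triple-negative subtype, which lacks hormone receptors and HER2 amplification. One group received a lentivirus that encodes antagomiR-138 (antimiR-138 in the sample labels), which blocks miR-138 by base pairing, and the other a lentivirus that encodes a scrambled control. Both groups were harvested on day 3, 72 h after transduction. Each group holds 3 samples, whose total RNA was read on Illumina bead arrays, and the comparison asks how the transcriptome of these cells differs after the inhibitor, and it holds 1 cell line and 1 time point.

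Ribosomes are made in the nucleolus. RNA polymerase I transcribes the ribosomal RNA precursor, small nucleolar ribonucleoproteins guide its chemical modification, and a large set of transient assembly factors folds it, cuts it and loads it with ribosomal proteins until separate 40S and 60S subunits are exported to the cytoplasm. Many of these factor genes are transcribed together in growing cells and are known targets of the transcription factor MYC, which binds the E-box, and ribosome output is often raised in tumour cells. The inhibited microRNA, hsa-miR-138-5p, is shown because its seed (bases 2 to 8, in capitals) is the part that pairs with target messages. RefSeq (GRCh38.p14) lists the same mature sequence of 23 bases at both of its genes, MIR138-1 (chr3:44114234-44114256, plus strand) and MIR138-2 (chr16:56858527-56858549, plus strand).
hsa-miR-138-5p: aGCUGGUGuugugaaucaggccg

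On each array, 40.7% to 43.2% of the 47322 probes (19263 to 20430) passed a detection p of 0.05. Levels are log2 signals after background correction and quantile normalization with an offset of 16, and changes are differences of antagomiR-138 from scrambled control fitted with limma and called at a Benjamini-Hochberg adjusted p under 0.05 over all 11426 genes. Correlations across genes were 0.996 within groups and 0.962 to 0.964 between groups. Neither the labels nor the methods say whether separate cultures gave the 3 samples per group. The p-values therefore reflect the spread among these arrays only, and that spread may be technical. The number of arrays limits the precision. In RNA from a whole culture, a change in every cell and a change in the mix of cells cannot be told apart. All 7 mesenchymal markers of the line were detected on every array, and of 7 luminal markers with a probe, ESR1, FOXA1, PGR and TFF1 were detected on none, while KRT19 and GATA3 were detected on all 6 and ERBB3 on 3 control and 2 antagomiR-138 arrays.

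Ribosome biogenesis genes were mostly higher in antagomiR-138 cells, by small amounts. Of the 50 tested, 32 passed as higher and 5 as lower, which left 13 that passed in neither direction. Over all genes tested, 60.1% were called, 30.9% higher and 29.1% lower, so the share of members called higher (64.0%) was above that of all genes and the share called lower (10.0%) was below it. With median scaling in place of quantile normalization, 16 members were higher and 2 lower, against 21.6% and 27.1% of all genes. Leaving out 1 array ended the calls of 12 members at least once (GAR1, IMP3, NCL, NOB1, NOC2L, NOP58, POLR1D, POLR1E, RIOK2, RRP1, UTP15 and UTP3). The median log2 fold change of the members was 0.24 against 0.02 for all genes tested, 38 of the 50 lay above 0, and single values ranged from −0.86 to 0.87. The 3 arrays of one group lay wholly above the 3 of the other for 36 members in the direction of antagomiR-138 and for 6 in the direction of the control, and 8 members overlapped. Over all genes, the groups did not overlap for 34.5% in the first direction and 32.1% in the second. Only 6 members rose and 1 fell by at least 1.5-fold, against 11.4% of all genes higher and 13.8% lower at that size, so at this size the members' rises were near the background share and their falls below it. The 25th to 75th percentiles of the members spanned 0.10 to 0.43, while those of all genes spanned −0.32 to 0.31. Within groups, the median SD was 0.08 for the members and 0.10 for all genes.

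**Figure D1:**
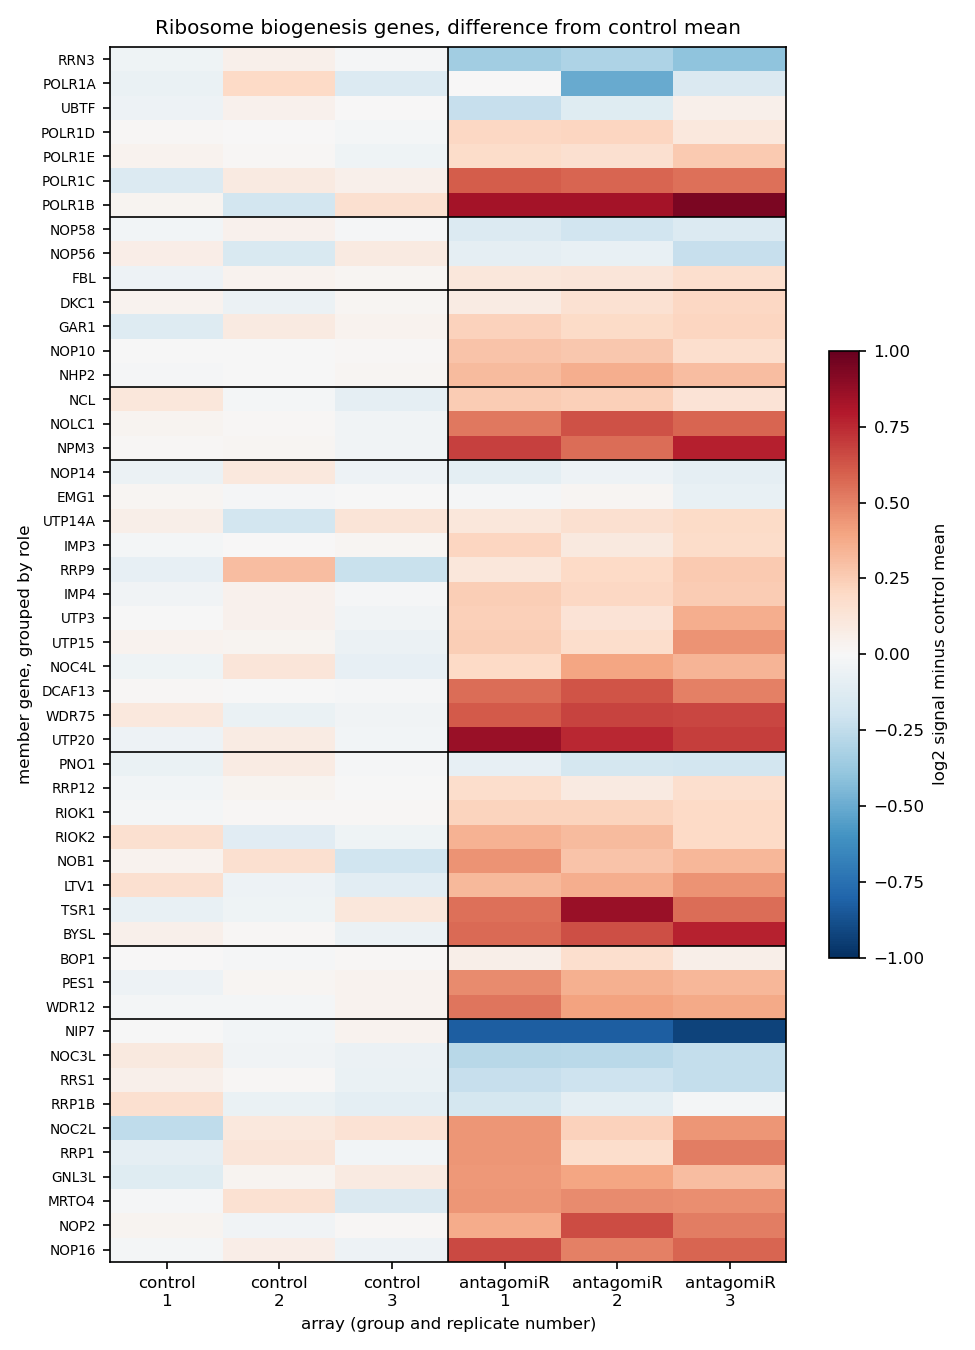
Log2 signal of each of the 50 tested members (rows, ordered within role by fold change) on each of the 6 arrays (columns), shown as the difference from the mean of the 3 scrambled control arrays. From the top, the blocks are RNA polymerase I and rDNA transcription, box C/D snoRNP, box H/ACA snoRNP, nucleolar phosphoproteins and chaperones, small subunit processome, late 40S maturation, PeBoW complex and 60S assembly. Red is higher and blue lower than the control mean, and the 3 antagomiR-138 columns are red for most rows, with NIP7 the deepest blue.

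**Figure D2:**
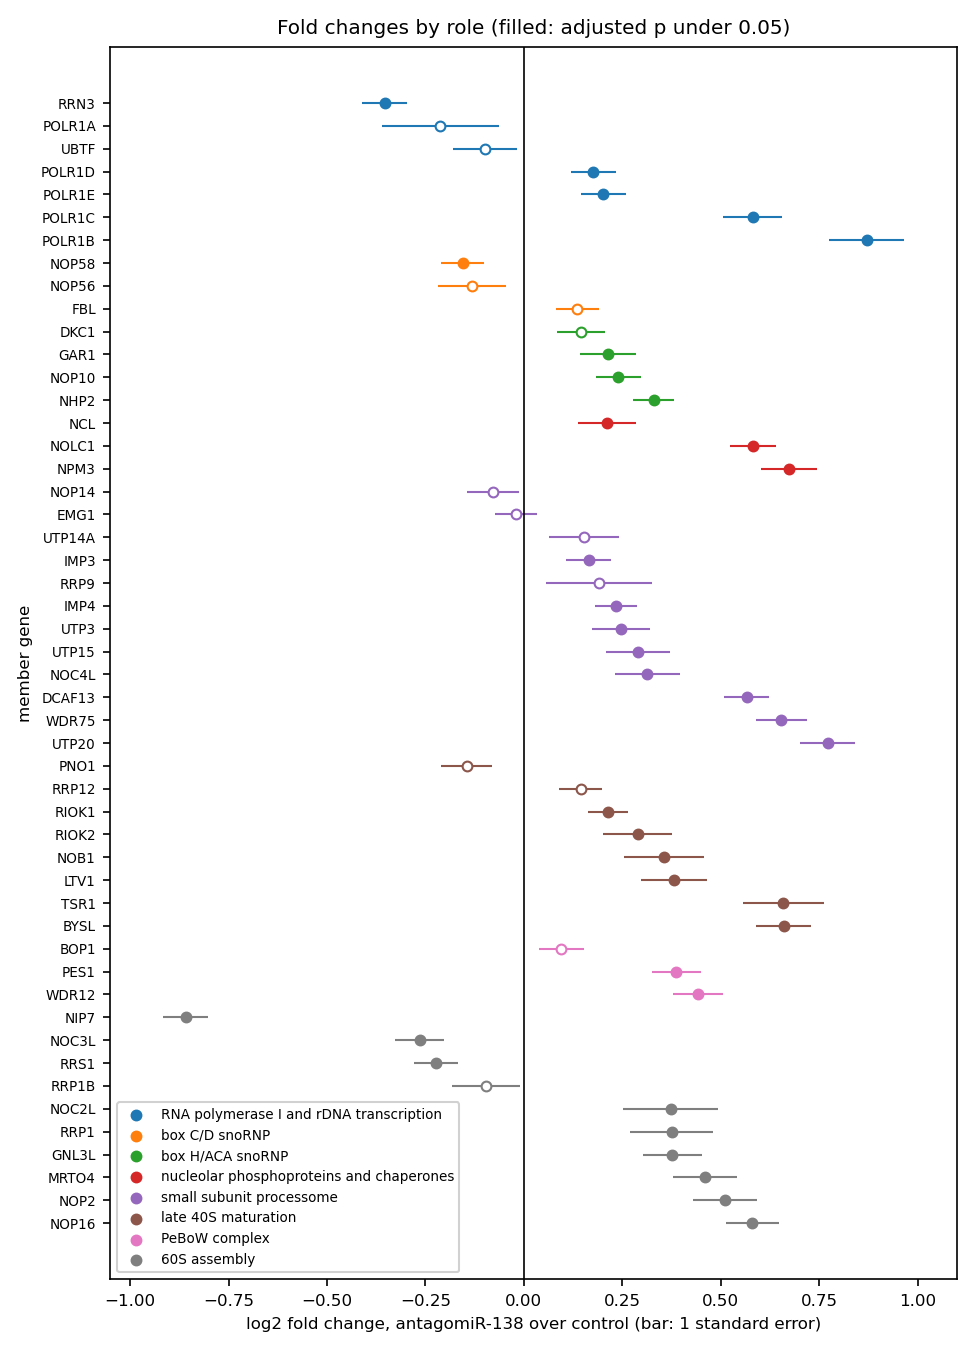
Log2 fold change of each tested member, antagomiR-138 over scrambled control (points; bars are 1 standard error), coloured by role. Filled points passed an adjusted p of 0.05 in limma and open points did not. The values run from −0.86 for NIP7 to 0.87 for POLR1B, and 38 of 50 points lie right of 0.

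RNA polymerase I genes, which encode the enzyme that makes the ribosomal RNA precursor, changed in both directions, with 4 of 7 tested genes higher, 1 lower and a median of 0.18. These were 57.1% and 14.3%, against 30.9% and 29.1% of all genes. This class and those below are small for a comparison with all genes. POLR1B, the second-largest subunit of the enzyme, had log2 signals of 5.80, 5.59 and 5.93 in the control samples and 6.60, 6.60 and 6.72 in the antagomiR-138 samples. All 3 antagomiR-138 samples were above all 3 controls, and the rise of 0.87 (standard error 0.10, adjusted p = 0.000253 from limma), or 1.83-fold, was the largest of any tested member. Its probes were dim, and without scrambled control 1, when its other probe represented the gene, the rise was 0.52. POLR1C, a subunit shared with RNA polymerase III, rose by 0.58 (standard error 0.07), and both of its probes were called higher. POLR1E rose by 0.20 with both of its probes called, whereas POLR1D, another subunit shared with RNA polymerase III, rose by 0.18 on its brighter probe while a dimmer probe was lower by 0.52 (adjusted p over all probes = 0.00969), so its direction rests on the probe.

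RRN3 went the other way. RRN3 is the initiation factor, also known as TIF-IA, that brings RNA polymerase I to the ribosomal DNA promoter and through which growth signals act on it. Its log2 signals were 9.44, 9.53 and 9.47 in the control samples and 9.13, 9.17 and 9.08 in the antagomiR-138 samples, with no overlap. The fall was 0.35 (standard error 0.06, adjusted p = 0.00166 from limma), or 1.28-fold. POLR1A, the largest subunit, was detected on 3 control and 2 antagomiR-138 arrays and its groups overlapped (log2 fold change −0.21, standard error 0.15). UBTF, which binds the ribosomal DNA and opens it for transcription, had a change of −0.10 that did not pass the test, and its second detected probe was lower by 0.36 (adjusted p over all probes = 0.0109).

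The 2 classes of small nucleolar ribonucleoprotein differed in their counts. Of 3 tested proteins of the box C/D particles, which guide 2'-O-methylation of ribosomal RNA, none was called higher and 1 was called lower. The 33.3% called lower was near the 29.1% of all genes, while 30.9% of all genes were called higher. NOP58, one of the core scaffold proteins, had 10.81, 10.89 and 10.83 in the control samples and 10.71, 10.65 and 10.70 in the antagomiR-138 samples. Its groups did not overlap, but the fall of 0.15 (standard error 0.05, adjusted p = 0.0435 from limma) was the smallest among the called members and did not pass without any 1 of the 6 arrays. NOP56, its partner in the scaffold, was lower on all 3 of its probes by 0.13 to 0.18 with none called, and FBL, fibrillarin, the methyltransferase of these particles, was at 0.14 (adjusted p = 0.0708 from limma) with all antagomiR-138 samples above all controls.

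Box H/ACA proteins, which carry out pseudouridylation of ribosomal RNA and are also part of telomerase, were higher for 3 of 4 genes and lower for none, with a median of 0.23. Shares here were 75% and 0%, against 30.9% and 29.1% of all genes. NHP2, a core protein of these particles, had log2 signals of 11.41, 11.42 and 11.45 in the control samples and 11.74, 11.80 and 11.74 in the antagomiR-138 samples. The spread within each group was far smaller than the gap between them, and the rise was 0.33 (standard error 0.05, adjusted p = 0.00145 from limma). Its 4 probes gave 0.33 to 0.42 and each was called higher. NOP10 rose by 0.24 with both probes called, GAR1 rose by 0.21 on its brightest probe while its 4 probes ran from −0.09 to 0.30, and DKC1, dyskerin, the pseudouridine synthase itself, had 0.14 (adjusted p = 0.0772 from limma). A test of the difference between the classes was not made.

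Nucleolar phosphoproteins and chaperones rose for all 3 tested genes (100%, against 30.9% of all genes called higher). NPM3, a chaperone of the nucleoplasmin family related to nucleophosmin, had 10.90, 10.91 and 10.85 in the control samples and 11.57, 11.45 and 11.67 in the antagomiR-138 samples. These groups lay apart by several times their SD, and the rise was 0.67 (standard error 0.07, adjusted p = 0.000211 from limma), or 1.60-fold. NOLC1, known as Nopp140, a chaperone of small nucleolar ribonucleoproteins, rose by 0.58, and NCL, nucleolin, rose by 0.21 (adjusted p = 0.0412 from limma), a call that was lost without scrambled control 2 or 3 or antagomiR-138 sample 1 or 2, each left out alone.

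Small subunit processome genes encode the giant early particle that forms on the nascent ribosomal RNA precursor and yields the 18S RNA. Of 12 tested, 8 were higher (66.7%, against 30.9% of all genes). None was lower (against 29.1% of all genes), and the median log2 fold change was 0.24. UTP20, a large scaffold protein of the particle, had 7.33, 7.47 and 7.35 in the control samples and 8.25, 8.14 and 8.08 in the antagomiR-138 samples. All antagomiR-138 samples were higher than all controls, and the rise was 0.77 (standard error 0.07, adjusted p = 0.000112 from limma), or 1.71-fold, on 1 probe, as its other probes were not above background. WDR75 and DCAF13, both structural subunits, rose by 0.65 and 0.57. NOC4L, UTP15, UTP3, IMP4 and IMP3 rose by 0.31, 0.29, 0.25, 0.23 and 0.16. The remaining members were RRP9, which recognizes the U3 small nucleolar RNA (0.19), UTP14A (0.15), EMG1, a ribosomal RNA methyltransferase (−0.02), and NOP14 (−0.08), none of which passed the test. Of these, NOP14 had a second probe that was lower by 0.30 (adjusted p over all probes = 0.0174) and UTP14A a second probe that was higher by 0.28 (adjusted p over all probes = 0.0189).

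Late 40S maturation factors, which act on the small subunit before and after its export to the cytoplasm, were higher for 6 of 8 genes and lower for none, with a median of 0.32. As shares, 75% were higher and 0% lower, against 30.9% and 29.1% of all genes. BYSL, bystin, had 11.18, 11.14 and 11.07 in the control samples and 11.70, 11.77 and 11.90 in the antagomiR-138 samples. No sample of one group reached the other, and the rise was 0.66 (standard error 0.07, adjusted p = 0.000232 from limma), or 1.58-fold. TSR1, a GTPase-like factor of the late particle, had 9.20, 9.23 and 9.38 in the control samples and 9.82, 10.13 and 9.82 in the antagomiR-138 samples. Its second antagomiR-138 sample was the highest, the groups stayed apart, and the rise was again 0.66 (standard error 0.10, adjusted p = 0.00136 from limma), with 0.67 on its other probe. LTV1 rose by 0.38, NOB1, the nuclease that makes the final cut of the 18S RNA, by 0.36, and the kinases RIOK2 and RIOK1 by 0.29 and 0.21. PNO1, the binding partner of NOB1, did not pass the test (−0.15, adjusted p = 0.0911 from limma), although its 3 antagomiR-138 samples all lay below the controls. RRP12, an export factor of both subunits in yeast, had 0.14 (adjusted p = 0.0549 from limma).

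PeBoW is the complex of PES1, BOP1 and WDR12 needed to process the 5.8S and 28S RNA precursors of the large subunit. WDR12 had 10.35, 10.35 and 10.40 in the control samples and 10.90, 10.77 and 10.75 in the antagomiR-138 samples. The groups were well separated, and the rise was 0.44 (standard error 0.06, adjusted p = 0.000935 from limma), or 1.36-fold, with 0.39 on its second probe. PES1 rose by 0.39 (standard error 0.06), while BOP1, at 0.09 (standard error 0.06), did not pass the test. The 3 subunits of this complex were not tested against each other.

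Other 60S assembly factors held both the largest fall and several rises, with 6 of 10 tested genes higher, 3 lower and a median of 0.37. In shares this was 60% and 30%, against 30.9% and 29.1% of all genes, so the share lower was near the background. NIP7, a pre-ribosome factor first described in yeast as needed for 60S assembly, had 11.29, 11.27 and 11.33 in the control samples and 10.47, 10.47 and 10.37 in the antagomiR-138 samples. The gap between the groups was more than 10 times the SD within either, and the fall was 0.86 (standard error 0.06, adjusted p = 3.12e-05 from limma), or 1.81-fold. NIP7 had the lowest adjusted p of the tested members, and the only fall of at least 1.5-fold. NOC3L, a nucleolar factor of the early 60S particle, had 11.53, 11.40 and 11.38 in the control samples and 11.16, 11.17 and 11.20 in the antagomiR-138 samples. The antagomiR-138 samples were all below the controls, with a fall of 0.26 (standard error 0.06, adjusted p = 0.00893 from limma). RRS1, which takes part in bringing the 5S RNA particle to the large subunit, had 10.32, 10.29 and 10.21 in the control samples and 10.04, 10.07 and 10.04 in the antagomiR-138 samples, again with no overlap. Its fall was 0.22 (standard error 0.06, adjusted p = 0.0118 from limma).

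Rises in the same class were carried by NOP16 (0.58), NOP2, a methyltransferase of the 28S RNA (0.51), MRTO4, a relative of the stalk protein P0 that holds its place on the pre-60S particle (0.46), the nucleolar GTPase GNL3L (0.38), RRP1 (0.38) and NOC2L (0.37). Of these, NOP2 had 3 detected probes at 0.45 to 0.71, all called higher, and NOP16 and GNL3L had 2 each, also called. NOC2L was dim, and its call was lost in 8 of 15 other settings, among them without scrambled control 1 (0.25) and without antagomiR-138 sample 1 or 3. RRP1B, the paralogue of RRP1, had −0.10 and did not pass the test.

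**Figure D3:**
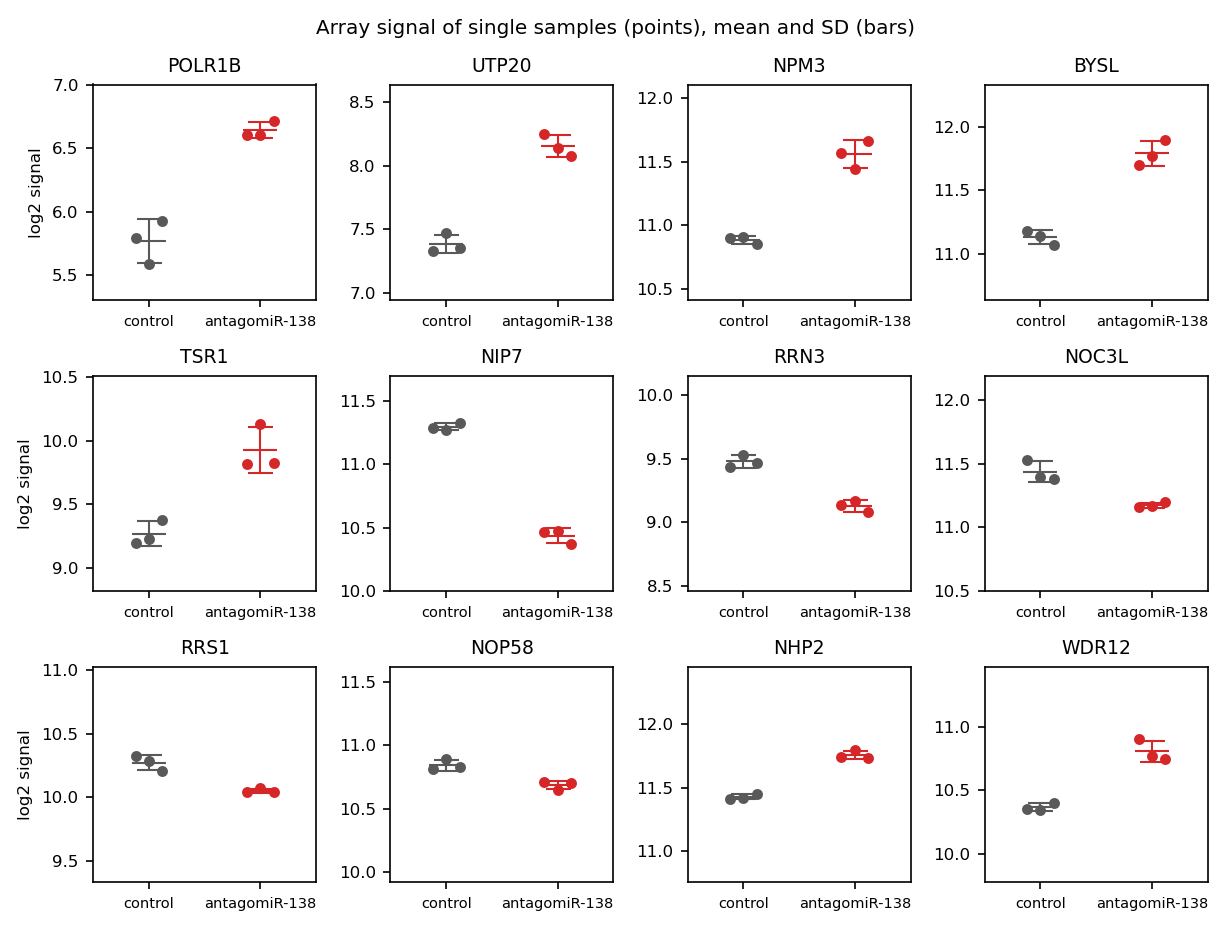
Log2 signal of 12 members in each of the 3 scrambled control and 3 antagomiR-138 samples (points), with the mean and SD of each group (bars); every panel spans the same number of log2 units. The groups do not overlap in any of the 12 panels, with the antagomiR-138 samples lower for NIP7, RRN3, NOC3L, RRS1 and NOP58 and higher for the others.

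Members with several detected probes allow a check that does not depend on which probe stands for the gene. For 19 members with more than 1 detected probe, all probes lay above the control in 14, all below in 3 and on both sides of 0 in 2 (POLR1D and GAR1). In none were probes called in both directions over all probes tested, and in 11 every probe was called higher. Such counts per gene were not made over all genes, so they have no background share beside them. Of the 76 detected probes of the members, 45 were higher and 7 were lower, against 26% and 23.9% of the 20051 detected probes on the array. NOC4L probes at 0.48 and 0.42 were detected on 1 control and 3 antagomiR-138 arrays. They entered only through the group where they were higher. The probe at 0.48 is among the 45, and NOC4L is among the 14 members with all probes above the control. Probes of 1 gene share their transcript and are not independent of each other.

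Other genes of the same pathway were measured beside the members, from lists drawn up by function. The plot of fold changes by list sets the members beside 5 of them. Of 46 tested large subunit factors outside the member list, 28 were higher (60.9%) and 1 was lower (2.17%), with a median of 0.28. Of 38 small subunit factors 15 were higher (39.5%) and 5 lower (13.2%), with a median of 0.10. Over all genes the shares were 30.9% and 29.1%. WDR3, among the 15, was detected on 3 antagomiR-138 arrays and on no control array. It entered only through the group where it was higher. DDX51 and URB2, an RNA helicase and a nucleolar factor of large subunit assembly, rose by 0.64 and 0.63, and NIFK, which binds the Ki-67 protein and acts in 28S processing, fell by 0.25. MPHOSPH10, the partner of IMP3 and IMP4 in one subcomplex of the processome, rose by 0.75, and DIMT1, an 18S dimethyltransferase, by 0.71. The processome protein NOL6 fell by 0.83 (0.52 as the mean of its probes) and SNU13, the RNA-binding core protein of the box C/D particles, by 1.02 (adjusted p = 1.42e-05 from limma).

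RNA polymerase I factors, the exosome and ribosomal proteins showed other counts. Of 8 further RNA polymerase I factors 2 were higher and 4 lower (median −0.13). These were 25% and 50% of the list, against 30.9% and 29.1% of all genes. TAF1D, a subunit of the promoter selectivity factor SL1, fell 2.82-fold (adjusted p = 2.03e-05 from limma) and POLR1H, a small subunit of the enzyme, fell by 0.52 on the log2 scale, while TAF1A rose by 0.38 and POLR1G by 0.20. Of 12 genes of the RNA exosome, the 3'-to-5' nuclease that trims ribosomal RNA precursors, 3 were higher and 5 lower (median −0.11). Their shares were 25% and 41.7%, and lists of 8 and 12 genes are small for a comparison with all genes. EXOSC5 fell by 1.91, or 3.77-fold, and EXOSC2 by 0.78, and EXOSC7 and EXOSC4 rose by 0.76 and 0.64. Of 68 tested cytosolic ribosomal protein genes, whose products the factors assemble, 6 were called higher and 11 lower, and 51 were not called (median 0.02). The shares called were 8.82% and 16.2%. Control means of these genes ran from 6.83 to 15.16, while those of the members reached 13.23 at most. Of all genes tested with a mean log2 level above 12, 34.4% were called higher and 25.5% lower. The part of signal level in these counts was not tested. Among those past the test, RPS7 rose by 0.41 and RPL27 by 0.23, and RPL13 and RPL12 fell by 0.75 and 0.44. Control means were 8.28 for RPS7, 14.12 for RPL27, 11.57 for RPL13 and 13.96 for RPL12. These lists were not tested against each other.

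**Figure D4:**
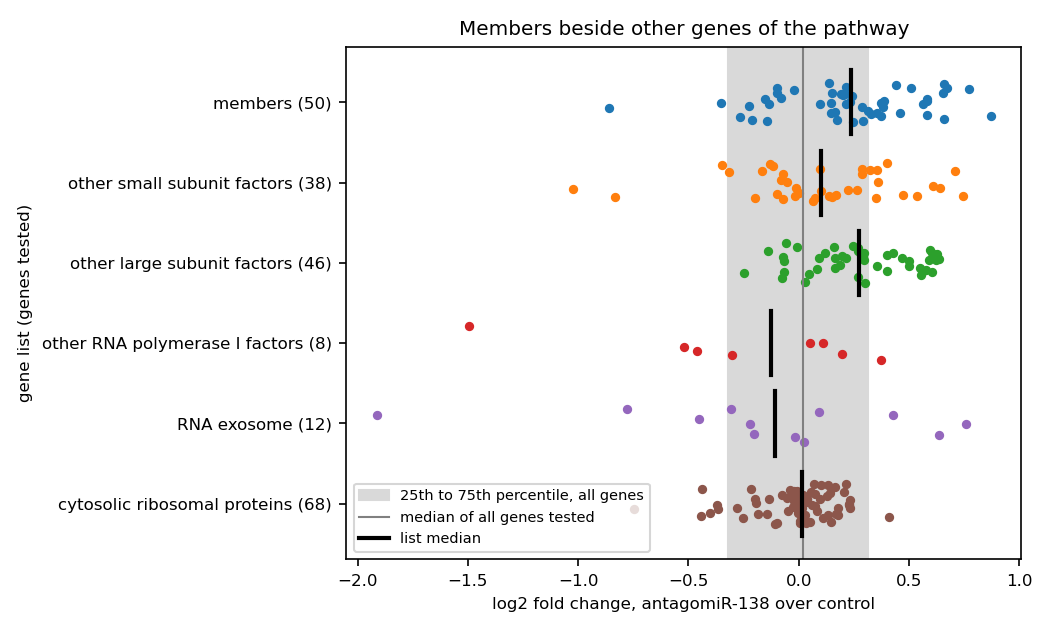
Log2 fold changes, antagomiR-138 over scrambled control, of the 50 tested members and of 5 further lists of the pathway (each point is a gene; vertical spread within a list carries no value; black bars are list medians). The grey band spans the 25th to 75th percentiles of all 11426 genes, −0.32 to 0.31, with their median as a grey line. Medians of the members (0.24) and of the other large subunit factors (0.28) lie to the right of that line and inside the band, and the ribosomal protein median (0.02) lies on it.

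MYC, the transcription factor best known for driving these genes, was itself higher. Its log2 signals were 11.73, 11.77 and 11.65 in the control samples and 12.26, 12.26 and 12.29 in the antagomiR-138 samples, a rise of 0.56 (standard error 0.06, adjusted p = 0.000193 from limma), or 1.47-fold, with no overlap between the groups. Of 9 tested genes of MYC and its partners 3 were higher and 4 lower (33.3% and 44.4%, against 30.9% and 29.1% of all genes). MAX, the dimerization partner of MYC, rose by 0.69, and MXD3, of the same list, fell by 1.39. MXI1, also of that list, was above background in each of the 3 control samples but in none of the antagomiR-138 samples. Its level there is therefore only bounded and was at least 1.83-fold lower. The adjusted p of 5.47e-05 from limma belongs to the difference of the normalized signals (−1.41), and the bound was not tested. For this bound, each antagomiR-138 sample was given the weakest signal among its detected probes, or that of the MXI1 probe if stronger. The remaining gene of the list called higher, MNT, rose by 0.41, and MGA and MLX fell by 0.32 and 0.30. MXD4 (0.14) and MXD1 (0.03) did not pass the test. Whether the change in MYC has a part in the members' levels was not tested.

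Promoter sequences of the members were read for the motif that MYC binds. RefSeq windows of GRCh38.p14, from 250 bases before to 50 after each gene start, were found by symbol for 46 of the 55 members (BOP1, DCAF13, NOLC1, NOP58, POLR1E, RRP12, RRP1B, RRS1 and TCOF1 had none). The E-box CACGTG, which reads the same on both strands, was present in 18 of the 46 (39.1%) and in 8.77% of 27305 genes. It began within 50 bases of the start in 17 of the 46, against 3.51% of all genes. Some genes have several windows, and among those with 1 window the shares were 37.8% of 37 members and 7.28% of all genes. The member windows were richer in G and C (median 64.0%, against 58.7% of all windows), and a match is a string of letters and not a measured site. The 27305 genes were not limited to genes detected on these arrays, and no share among detected genes was computed.

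An E-box was found in 9 of 29 members called higher, in 1 of 3 called lower and in 5 of 10 that did not pass the test, and the median log2 fold change was 0.23 with it and 0.29 without it. No association was tested, and 3 members called lower are too few to show one. The 7 promoters below were chosen to show how close to the start it sits in members of every outcome. UTP20 (chr12:101280025-101280129, plus strand), MRTO4 (chr1:19251725-19251829, plus strand), PES1 (chr22:30591886-30591990, minus strand) and NOP10 (chr15:34343112-34343216, minus strand) rose. NOC3L (chr10:94362915-94363019, minus strand) fell, and FBL (chr19:39846355-39846459, minus strand) and PNO1 (chr2:68157808-68157912, plus strand) did not pass the test. Each stretch runs from 80 bases before the start through the first 25 bases of the transcript, 5′ to 3′ on the strand of the gene, with the E-box in capitals.
UTP20: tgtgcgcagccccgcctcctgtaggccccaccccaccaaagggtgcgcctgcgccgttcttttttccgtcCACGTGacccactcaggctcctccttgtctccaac
MRTO4: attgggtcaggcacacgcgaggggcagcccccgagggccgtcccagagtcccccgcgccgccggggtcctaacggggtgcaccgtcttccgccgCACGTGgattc
PES1: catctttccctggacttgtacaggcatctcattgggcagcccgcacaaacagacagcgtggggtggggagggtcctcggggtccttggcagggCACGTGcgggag
NOP10: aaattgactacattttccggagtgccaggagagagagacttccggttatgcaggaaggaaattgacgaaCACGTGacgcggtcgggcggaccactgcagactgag
NOC3L: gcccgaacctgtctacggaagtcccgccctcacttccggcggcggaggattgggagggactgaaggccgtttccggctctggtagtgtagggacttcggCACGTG
FBL: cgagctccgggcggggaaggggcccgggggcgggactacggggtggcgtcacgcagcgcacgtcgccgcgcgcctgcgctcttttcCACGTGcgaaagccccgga
PNO1: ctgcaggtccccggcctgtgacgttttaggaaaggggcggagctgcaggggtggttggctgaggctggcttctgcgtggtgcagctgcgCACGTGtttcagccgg

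In UTP20 and NOP10 the E-box lies just before the start, and in the other 5 just after it.

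**Figure D5:**
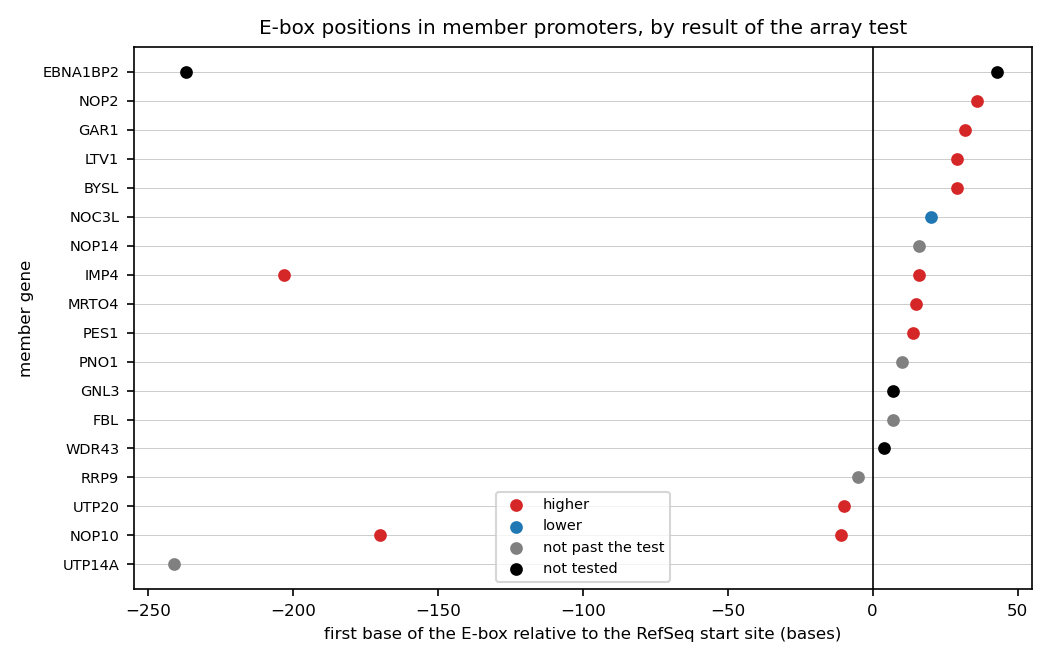
Position of the first base of each CACGTG in the promoter windows of the 18 members that hold it (horizontal axis, bases from the RefSeq start site), coloured by the result of the array test. In 17 of the 18 an E-box begins within 50 bases of the start, and UTP14A is the exception at −241.

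Other promoter motifs were searched on both strands in the same windows, and none of the motifs contains another. The ETS motif CCGGAAG was found in 18 of 46 members (39.1%, against 12.2% of all genes), in 11 of 29 called higher, 3 of 3 called lower and 3 of 10 not past the test. TCTCGCGA, the motif of ZBTB33, was in 5 members (10.9%, against 1.37%), and the YY1 motif AANATGGCG was in 4 (8.70%, against 3.85%). The NRF1 motif CGCATGCG and the cyclic AMP response element TGACGTCA were in 2 members each (4.35%, against 2.46% and 2.25%). The counts of members are small and the windows of members were not matched to other windows for base composition or for detection on the arrays.

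Markers of cell types that the culture should not hold also moved between the groups. The summed normalized signal of 6 fibroblast markers was 561 to 586 on the control arrays and 961 to 1077 on the antagomiR-138 arrays, with 3 of the 6 detected on every control array and 4 on every antagomiR-138 array. Within that list COL1A1, COL1A2 and LUM were higher and DCN and PDGFRB lower, and the probe that stood for COL1A1 was not detected on any control array. The LUM probe was detected on 1 control array and the DCN probe on 1 antagomiR-138 array. These probes of COL1A1, LUM and DCN entered only through the group where they were higher. Of 4 leukocyte markers measured, PTPRC and CD3E were not detected on any array, CD14 was higher and CSF1R lower, and the sum over the 4 was 1024 to 1092 on control arrays and 2116 to 2435 on antagomiR-138 arrays. The luminal sum over 7 markers was 4449 to 4461 on control arrays and 4179 to 4315 on antagomiR-138 arrays, with GATA3 and ERBB3 called lower (−0.52 and −1.30). The mesenchymal sum was 122124 to 126631 on control arrays and 110777 to 113147 on antagomiR-138 arrays. Within it EGFR (−0.91), AXL (−0.80), CD44 (−0.45) and CAV1 (−0.29) were called lower. MSN (0.42) and ITGB1 (0.31) were called higher, and VIM (−0.05) did not pass the test. The part of these shifts in the members' levels was not tested.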

How the data were processed

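Genes were chosen by function, and the members, the other lists and the motifs were chosen with earlier results of these data known. Biotin-labelled cRNA was hybridized by the authors to Illumina bead arrays. The main deposited table holds, per probe and array, a linear intensity after background subtraction and without normalization between arrays, and a detection p-value. A second table deposited by the authors holds linear intensity that shares its quantiles across arrays (column medians of 14.46 to 14.47) and keeps the rank order of each array (lowest rank correlation 1); how it was normalized is not stated in the methods, and it served as an alternative. Software named in the methods is BeadStudio and Partek, and GenomeStudio 1.9.0 stands in the submitters' processing notes. The probe annotation belongs to another Illumina design than the one the methods name, so probes were matched to genes by identifier and symbols updated through RefSeq. Of 47322 probes, 30113 matched 1 gene, 8 matched several and 17201 are unnamed here.

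The main table was processed with neqc of limma 3.58.1 in R 4.3.3, which estimates background from detection p-values, applies quantile normalization and takes log2 with an added offset of 16. Fold changes of dim genes are thereby understated. Probes detected (p under 0.05) on 3 or more arrays were kept (20051), and the brightest kept probe by mean stood for its gene (11426 genes). Genes, and separately probes, were fitted with lmFit and eBayes over the 6 samples without covariates. Tests were two-sided with Benjamini-Hochberg adjustment. Samples were grouped by their labels, and the script was tested on simulated data. Values per sample are given for the 5 largest rises and 5 falls among called members whose groups do not overlap and for the largest change in each of 8 classes. Of each other list, up to 2 rises and 2 falls are named, and MYC. The remaining tested genes of the MYC list and WDR3 are given as well.

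Alternatives changed the background correction, scaling, detection filter, probe summary, variance model and thresholds, used the second table, the methods' t-test or the replicate number as a block, or left out each array. Same-numbered samples did not deviate together (correlations of 0.0017, 0.015 and 0.053), so the numbers were not taken as pairs. No slide term was fitted, since slides are not named in the labels.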

Additional observations from a re-analysis of the deposited data

How the results depend on the processing

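Across 18 other settings the members' counts leaned the same way in each, and their median log2 fold change stayed between 0.22 and 0.26 where it was recomputed. With median scaling in place of quantile normalization 16 members were higher and 2 lower. There the calls over all genes also fell to 2468 higher and 3094 lower, and the cause of the drop was not tested. At an adjusted p under 0.01, 20 members were higher and 3 lower, against 2606 and 2611 of all 11426 genes. At a change of at least 1.5-fold the members were 6 and 1, against 1297 and 1576 of all genes. Leaving out 1 array gave 23 to 29 members higher and 4 lower, with 12 calls lost at least once. Over all genes, 3142 to 3306 were then higher and 2910 to 3196 lower, of 11089 to 11236 tested. The losses numbered 7, 5 and 10 without scrambled control 1, 2 and 3, and 9, 5 and 7 without antagomiR-138 sample 1, 2 and 3. With the replicate number as a block 26 members were higher and 4 lower, against 3355 and 3231 of all 11426 genes. The replicate numbers were not shown to pair the samples. The methods' t-test gave 27 members higher and 5 lower after Benjamini-Hochberg adjustment, against 3127 and 3003 of all 11426 genes.

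POLR1D reversed to −0.17 as the mean of its probes, by construction, since its dimmer probe was lower. The call held under all 16 settings that refit single genes for 16 higher members (POLR1B, POLR1C, NHP2, NPM3, NOLC1, UTP20, WDR75, DCAF13, BYSL, TSR1, LTV1, WDR12, NOP2, NOP16, MRTO4 and GNL3L, apart from POLR1B, which does not enter under the strictest detection filter) and for RRN3 and NIP7 among the lower. Of the 13 members not past the test, 8 passed under at least 1 setting. Among the genes named as the largest rises and falls of the other lists, NIFK, POLR1G, RPL27 and TAF1A lost their call under at least 1 setting. Those settings for the other lists and genes were chosen after seeing the data. POLR1A was the only tested member not above background on every array, and larger offsets shrink the changes of dim members such as POLR1B (0.59 with an offset of 50).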
